A study of Mus musculus with 24 samples.

Results

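Tumours of a Lewis lung carcinoma line labelled as exposed chronically to interferon gamma (IFNG) were set against tumours of the parental line across all genes. LLC1 is an established mouse lung cancer cell line that grows in immunocompetent syngeneic mice. The comparison holds 3 Chronic IFNG LLC1 libraries and 3 Parental LLC1 libraries, 6 of the 24 libraries of the series, chosen by their group labels alone. All 6 were made from total RNA of live CD45-negative cells sorted on day 15 after injection, and the labels give no treatment of the mice for either group. The label calls the sorted cells cancer cells, but the gate removes leukocytes only, so host cells without CD45 can be present. The labels do not say whether the libraries of a group came from separate mice, so p-values measure the spread between these samples. They also do not give the IFNG dose or its duration, or whether the chronic line is 1 clone.

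IFNG binds a receptor that signals through JAK kinases and switches on the transcription factor IRF1 and a second wave of antiviral GTPases and antigen-presentation genes. Their promoters commonly carry a gamma-activated site (GAS) or an interferon-stimulated response element (ISRE), the second of which IRF1 can bind. The extracellular matrix is built mostly by mesenchymal cells, from fibrillar collagens, proteoglycans and adhesive glycoproteins, and is cut by matrix metalloproteinases. Mitotic genes are commonly driven through a promoter pair of CCAAT boxes and the cell-cycle homology region (CHR), which is bound by the DREAM and B-MYB complexes.

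Estimated depth was 13300000 to 18500000 fragments in Chronic IFNG LLC1 libraries and 18600000 to 34900000 in Parental LLC1 libraries. Of 31618 genes in the table, 10581 were abundant enough to test, and genes with an adjusted p from limma under 0.05 count here as called, that is as higher or lower. By this rule 24.5% of tested genes were called, 9.03% higher and 15.5% lower in Chronic IFNG LLC1 tumours. Groups did not overlap for 38.6% of tested genes, 15.0% with Chronic IFNG LLC1 above and 23.6% with it below. The median log2 difference of all tested genes was -0.02. The counts depend on single libraries, with 507 genes higher and 1047 lower without Parental LLC1 replicate 1, 1029 lower without Chronic IFNG LLC1 replicate 2 and 1049 lower without Parental LLC1 replicate 2. Most differences were small, since only 0.34% of tested genes passed as higher, and 0.104% as lower, with a difference of 1 log2 unit or more. Log2 differences are on the deposited variance-stabilised scale, which compresses low counts, and folds are ratios of mean normalised counts calculated back from it. With 3 against 3 libraries an exact test cannot go below 0.1, so the p-values given rest on limma's variance model. Chronic IFNG LLC1 replicate 1 stood apart from the other libraries of its group in interferon genes and in satellite-like transcripts. Gm10800, a predicted gene of that kind, had normalised counts of 8235, 149000 and 111230 in the 3 Chronic IFNG LLC1 libraries, against 109390, 33041 and 45225 in Parental LLC1 libraries.

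Sorting all tested genes by the letters that open their symbol gave 267 families with at least 6 tested members. The collagens ranked first, with 18 of 24 Col genes higher, 2 lower and a median log2 difference of 0.77. Guanylate-binding proteins (Gbp, 6 of 7 higher, median 0.70) and interferon-inducible Ifi genes (9 of 12 higher, 0.46) followed. The next families held fewer calls, with 3 of 9 Adamts proteases higher and 1 lower, and 4 of 8 Abca lipid transporters higher. At the other end of the ranking stood the mitochondrially encoded subunits of respiratory complex I (mt-Nd, 4 of 6 lower and 1 higher, median -0.37). Above them came cell-division-cycle-associated Cdca genes (7 of 7 lower, -0.28), the Mcm helicase genes (7 of 10 lower, -0.26), kinesins (Kif, 14 of 28 lower and 2 higher, -0.23), the chaperonin subunits (Cct, 6 of 7 lower, -0.23), histones (Hist, 26 of 60 lower and 1 higher, -0.21) and cytosolic ribosomal proteins (Rpl, 30 of 53 lower, -0.20). A family of small nuclear and nucleolar RNAs (Rnu) also sat there, with 3 of 7 lower. The ranking by symbol therefore placed matrix and interferon genes at 1 end, and division, translation and mitochondrial genes at the other.

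**Figure D1:**
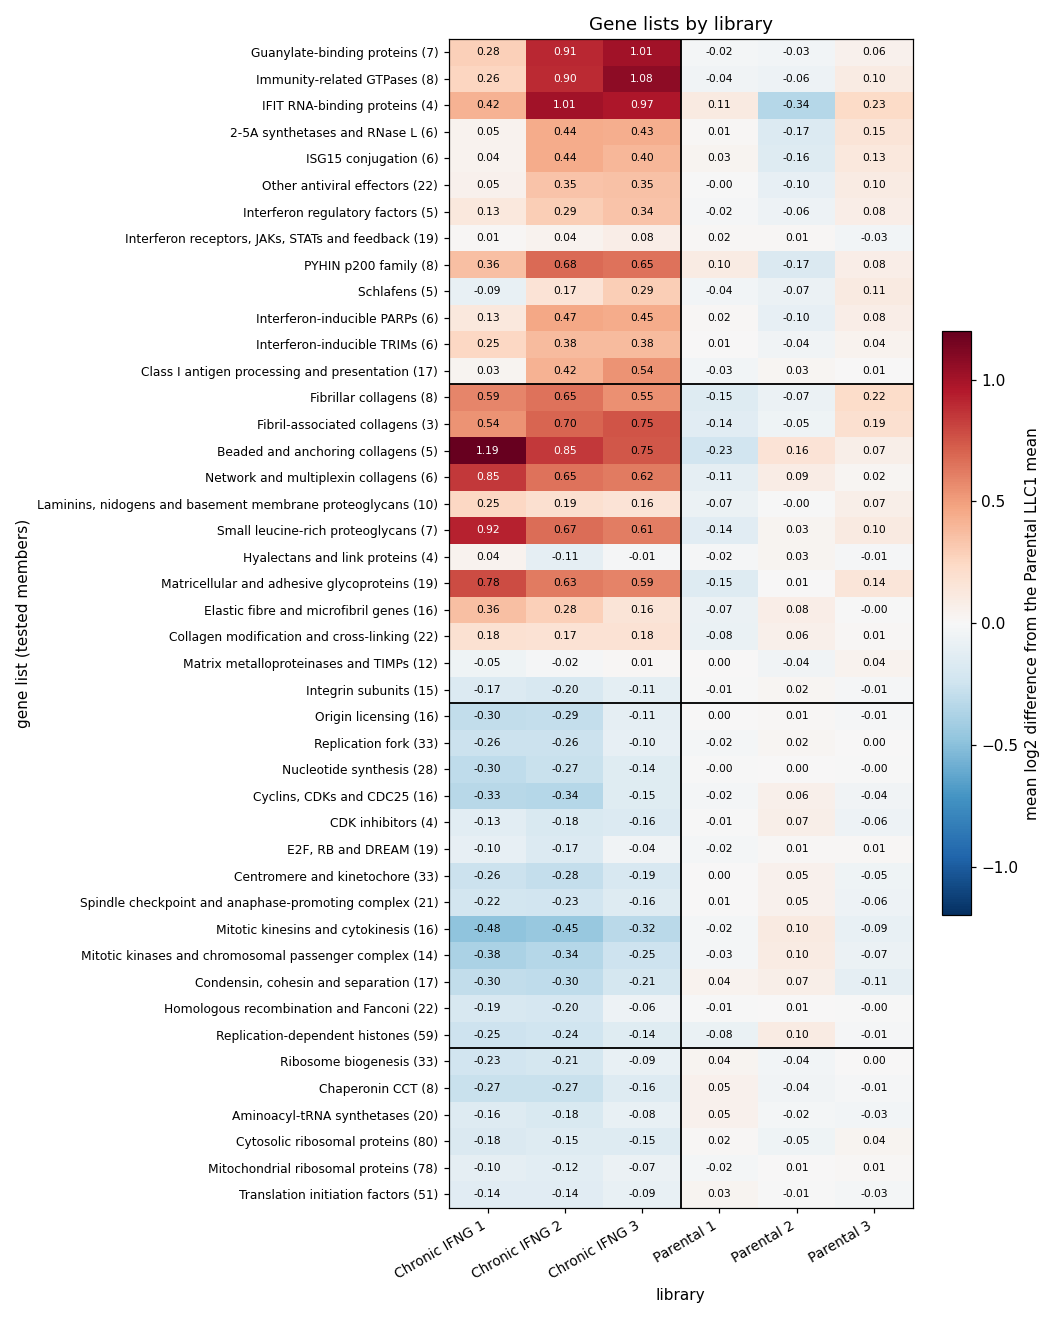
Mean log2 difference of the tested members of each gene list from the Parental LLC1 mean, with lists in rows (number of tested members in brackets) and the 6 libraries in columns. The first Chronic IFNG LLC1 library is paler than the other 2 in the interferon rows at the top, and darker in several matrix rows below them.

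Of the interferon lists, 119 of 161 listed genes were tested, and 57 were higher and 5 lower in Chronic IFNG LLC1 tumours, against 9.03% of all tested genes higher and 15.5% lower. The median log2 difference of the 119 was 0.32. The 8 tested immunity-related GTPases, which disrupt the vacuoles of intracellular parasites, were all higher, with a median of 0.72. Tgtp1 of this family had normalised counts of 313, 621 and 799 in Chronic IFNG LLC1 tumours, against 67.4, 95.9 and 93.7 in Parental LLC1 tumours. Its log2 difference was 1.13 ± 0.16 (SE, adjusted p = 0.00125). Every Chronic IFNG LLC1 library lay above every Parental LLC1 library, but the first was well under the other 2. Irgm2, a regulatory member that guards the cell's own membranes, had 636, 1080 and 1361 in Chronic IFNG LLC1 tumours, against 400, 394 and 448 in Parental LLC1 tumours (log2 difference 0.78 ± 0.15, adjusted p = 0.00545). Tgtp, Gbp and Oas genes have near-identical copies, so how reads were split between neighbours is uncertain.

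All 4 tested IFIT genes, which bind foreign RNA, were higher, with a median of 0.73. Ifit3 had 1159, 2418 and 2177 normalised counts in Chronic IFNG LLC1 tumours, against 868, 345 and 918 in Parental LLC1 tumours (1.05 ± 0.23, adjusted p = 0.0102). The groups did not overlap, although the first Chronic IFNG LLC1 library was only a little above the highest Parental LLC1 library. Among PYHIN genes, a chromosome 1 cluster that includes cytosolic and nuclear DNA sensors, 6 of 8 were higher, with a median of 0.62. Ifi205 of this cluster reached 648, 1058 and 946 in Chronic IFNG LLC1 tumours, against 411, 248 and 389 in Parental LLC1 tumours (0.79 ± 0.12, adjusted p = 0.00169). The inflammasome sensor Aim2 in the same cluster was not called at 0.12. The ubiquitin ligase gene Trim30a had 278, 456 and 385 normalised counts in Chronic IFNG LLC1 tumours, against 87.2, 55.5 and 93.2 in Parental LLC1 tumours. Its log2 difference was 0.85 ± 0.09 (adjusted p = 0.000393), a 4.75-fold rise with no overlap between the groups.

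Other branches held fewer calls. Of the interferon-inducible PARPs, which attach ADP-ribose to proteins, 4 of 6 were higher, led by Parp14 (0.51), Parp10 (0.44) and Parp9 (0.42). Of 6 genes in the 2-5A synthetase and RNase L list, which degrades RNA during infection, Oasl2 alone was called, at 0.50. In the ISG15 conjugation list, Uba7 (0.47), the activating enzyme, and Herc6 (0.29), a ligase, were 2 of 6 that rose, while Isg15 itself was not called at 0.36 and the deconjugase Usp18 at 0.39. Without Chronic IFNG LLC1 replicate 1 both were called, at 0.53 for Isg15 (adjusted p = 0.00664) and 0.62 for Usp18 (adjusted p = 0.00986). Oasl2, Parp14, Uba7 and Herc6 each lost their call without Chronic IFNG LLC1 replicate 2, at adjusted p of 0.142, 0.104, 0.0634 and 0.163. They also lost it without either of Parental LLC1 replicates 1 and 2. Without Chronic IFNG LLC1 replicate 3 the calls of Oasl2 (adjusted p = 0.126), Parp14 (0.0763) and Herc6 (0.0936) were lost. Herc6 lost its call without Parental LLC1 replicate 3 as well (0.0984). No Schlafen gene of 5 tested was called, and their log2 differences ran between -0.08 and 0.37. Among the receptors, kinases and feedback genes, 2 of 19 fell. The fallers were Ptpn2 (-0.28), a phosphatase that dampens JAK signalling, and Stat6 (-0.22), which serves interleukin 4 and 13.

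The IFITM genes, which block virus entry at membranes, moved against the rest. Ifitm1 had 316, 321 and 431 normalised counts in Chronic IFNG LLC1 tumours, against 654, 926 and 536 in Parental LLC1 tumours (-0.55 ± 0.13, adjusted p = 0.0125). Ifitm3 had 4443, 5456 and 5795 in Chronic IFNG LLC1 tumours, against 8013, 7019 and 6370 in Parental LLC1 tumours (-0.42 ± 0.10, adjusted p = 0.0135). Ifitm2 was also lower, at -0.22. These 3 neighbouring genes on chromosome 7 and the 2 signalling genes above are the 5 interferon list members that fell. Without Parental LLC1 replicate 1 the adjusted p was 0.0527 for Ifitm3 and 0.0505 for Ifitm2, and without Parental LLC1 replicate 2 it was 0.0571 for Ifitm2.

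**Figure D2:**
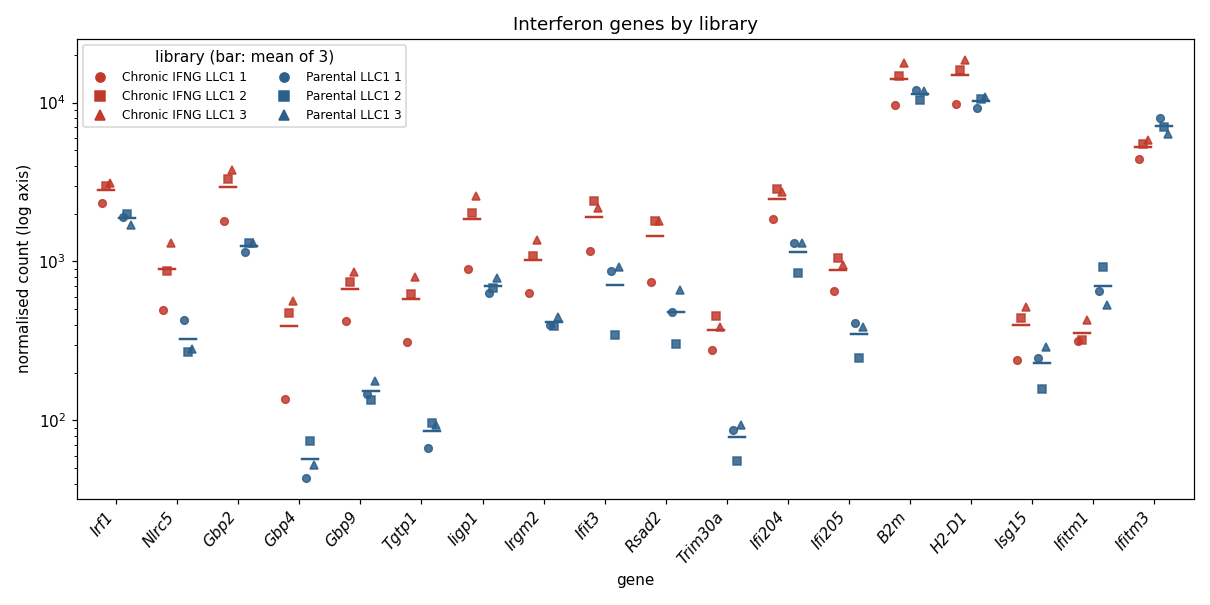
Normalised counts (log axis) of 18 interferon genes in each library, with Chronic IFNG LLC1 in red to the left of Parental LLC1 in blue, marker shape giving the replicate and bars the group mean. The red circle, Chronic IFNG LLC1 replicate 1, is the lowest red point for all genes shown.

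On the deposited scale the spread of the interferon response was wider in Chronic IFNG LLC1 tumours. That scale compresses low counts, and 105 of the 119 tested interferon genes had a positive log2 difference, so lower levels in Parental LLC1. What part the compression had in the spread was not tested. The median within-group SD over the 119 tested interferon genes was 0.197 log2 units in Chronic IFNG LLC1 and 0.108 in Parental LLC1, while over all tested genes it was 0.0759 in Chronic IFNG LLC1 and 0.0678 in Parental LLC1. The SD was larger in Chronic IFNG LLC1 for 91 of 119 interferon genes and for 5923 of 10581 tested genes. Averaged over the 119 genes, the 3 Chronic IFNG LLC1 libraries lay 0.11, 0.43 and 0.47 log2 units above the Parental LLC1 mean, and the 3 Parental LLC1 libraries lay 0.01, -0.07 and 0.07 from it. Replicate 1 was the lowest Chronic IFNG LLC1 library for 97 of 119 interferon genes, against 3020 of 10581 tested genes. Lists differed in how far replicate 1 fell short. For class I antigen processing and presentation its mean difference was 0.03, beside 0.42 and 0.54 in replicates 2 and 3, while for the PYHIN family it was 0.36, beside 0.68 and 0.65. Parental LLC1 tumours had a spread of their own, since the IFIT mean ran at 0.11, -0.34 and 0.23 in replicates 1, 2 and 3. The SD of Ifit3 was 0.448 in Chronic IFNG LLC1 and 0.468 in Parental LLC1.

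The number of interferon genes called higher, 57 with all libraries, changed when 1 library was left out. What part the spread had in this was not tested. Without Chronic IFNG LLC1 replicate 1, 84 of the interferon genes were higher. Without Chronic IFNG LLC1 replicate 2 the count was 30, without Parental LLC1 replicate 1 it was 33, and without Parental LLC1 replicate 2 it was 35. Leukocyte markers, a possible source of IFNG-responsive RNA, summed to 4.47, 5.47 and 7.13 CPM, counts scaled to an equal library total, in Chronic IFNG LLC1 libraries, against 4.56, 6.16 and 6.39 in Parental LLC1 libraries. The 9 T and NK cell markers in the table summed to 1.10, 2.87 and 3.08 CPM in Chronic IFNG LLC1 libraries, against 2.26, 1.16 and 1.76 in Parental LLC1 libraries. None of the markers of either list was abundant enough to test, and none was at 0 in all 6 libraries. The first Chronic IFNG LLC1 library was the lowest of its group in both sums, and their part in the interferon spread was not tested.

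Promoter sequence of 3 of the risers is shown because interferon genes differ in which response element they carry. Each run is the RefSeq promoter on GRCm38.p6, 250 bases before to 50 after the gene start, 5′ to 3′, in lower case with matches in capitals. The ISRE was searched as GAAANNGAAA and the GAS as TTCNNNGAA, on both strands. Gbp2 (chr3:142620413-142620712, plus strand), a guanylate-binding GTPase, and Ifit3 (chr19:34583279-34583578, plus strand) hold ISRE letters on the reverse strand. Irf1 (chr11:53769764-53770063, plus strand), a transcription factor early in the response, holds GAS letters.
Gbp2: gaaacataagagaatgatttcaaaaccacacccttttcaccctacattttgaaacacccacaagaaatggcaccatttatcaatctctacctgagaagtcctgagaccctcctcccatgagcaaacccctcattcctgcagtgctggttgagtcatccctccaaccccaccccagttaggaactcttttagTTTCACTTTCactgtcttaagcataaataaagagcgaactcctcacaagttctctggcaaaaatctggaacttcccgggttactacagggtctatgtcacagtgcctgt
Ifit3: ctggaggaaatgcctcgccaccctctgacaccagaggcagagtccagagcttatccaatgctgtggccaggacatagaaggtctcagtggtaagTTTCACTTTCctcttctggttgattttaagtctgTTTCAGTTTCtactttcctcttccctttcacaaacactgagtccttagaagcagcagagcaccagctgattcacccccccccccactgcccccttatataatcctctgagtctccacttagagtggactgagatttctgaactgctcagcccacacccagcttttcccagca
Irf1: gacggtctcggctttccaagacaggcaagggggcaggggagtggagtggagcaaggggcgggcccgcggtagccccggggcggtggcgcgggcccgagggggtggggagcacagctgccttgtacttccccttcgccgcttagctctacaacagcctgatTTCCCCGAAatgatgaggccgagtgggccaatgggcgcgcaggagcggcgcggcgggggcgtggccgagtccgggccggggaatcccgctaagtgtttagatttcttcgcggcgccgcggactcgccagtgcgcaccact
Ifit3 has 2 matches to the ISRE letters, the nearer 122 bases from the start, while Gbp2 has 1 match 59 bases from it and Irf1 has 1 GAS match 90 bases from it. Gbp2 had 1797, 3287 and 3768 normalised counts in Chronic IFNG LLC1 tumours, against 1147, 1304 and 1311 in Parental LLC1 tumours. Irf1 had 2318, 2977 and 3132 in Chronic IFNG LLC1 tumours, against 1900, 1998 and 1695 in Parental LLC1 tumours. The groups did not overlap for either gene. Of the 57 interferon genes that rose, 40 had a promoter in the table, and 24 of these (60%) held the ISRE letters, against 3.82% of the promoters of all tested genes. The GAS letters were in 11 of the 40 (27.5%), against 8.17% of all tested genes. Of 52 interferon genes with a promoter that were tested but not called, 20 (38.5%) held the ISRE letters. Among 48 matrix genes that rose, 2 (4.17%) held them. A match is a description of letters and not a bound site.

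Matrix genes were the other block that rose. Of 211 listed genes 127 were tested, 67 were higher (52.8%) and 16 lower (12.6%), against 9.03% higher and 15.5% lower of all tested genes. The median log2 difference was 0.28, and 0.11 with no filter on low values. Their summed level was 80710, 68720 and 65100 CPM in Chronic IFNG LLC1 libraries, against 41970, 49510 and 48460 CPM in Parental LLC1 libraries, so matrix transcripts took a larger share of all counts in every Chronic IFNG LLC1 library. Much of that sum is Col3a1, the fibrillar collagen of soft tissue, at 642720, 456300 and 386170 normalised counts in Chronic IFNG LLC1 tumours, against 215670, 317090 and 272140 in Parental LLC1 tumours (0.87 ± 0.18, adjusted p = 0.00665). Among the 67 that rose, replicate 1 was the highest Chronic IFNG LLC1 library for 46. Replicate 1 was the highest for 62 of all 127 tested matrix genes and the lowest for 42. Over all 10581 tested genes it was the highest for 4490. In bulk RNA of sorted cells, fewer cells of a type and less RNA per cell cannot be told apart.

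The rise reached most classes of collagen. Of the fibrillar collagens 5 of 8 were higher and 1 lower, of the fibril-associated collagens that decorate them 3 of 3 were higher, of the beaded and anchoring collagens 5 of 5, and of the network and multiplexin collagens 5 of 6. Col4a5, a basement membrane chain, had 4759, 2937 and 2315 normalised counts in Chronic IFNG LLC1 tumours, against 571, 890 and 786 in Parental LLC1 tumours (1.62 ± 0.19, adjusted p = 0.000554). Col8a1, a short network chain of vessel walls and cornea, had 8039, 5612 and 4571 in Chronic IFNG LLC1 tumours, against 1496, 1873 and 1642 in Parental LLC1 tumours (1.58 ± 0.15, adjusted p = 0.000327). The neighbours Col4a1 (0.27) and Col4a2 (0.35), which form the common basement membrane trimer, had smaller differences than Col4a5, and Col4a1 lost its call without any 1 of 3 libraries (adjusted p up to 0.0886, without Parental LLC1 replicate 1). The 3 chains of collagen VI, a microfibril near cell surfaces, rose together, with Col6a1 at 1.04, Col6a2 at 1.12 and Col6a3 at 1.25. Col24a1, a minor fibrillar collagen of developing bone, went the other way, with 10.6, 37.7 and 39.8 in Chronic IFNG LLC1 tumours, against 153, 146 and 318 in Parental LLC1 tumours (-0.75 ± 0.12, adjusted p = 0.00238). It was the 1 fibrillar collagen that fell, from a low level in both groups.

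Small leucine-rich proteoglycans, which space collagen fibrils, were higher in 6 of 7, with Aspn at 4914, 3242 and 2217 normalised counts in Chronic IFNG LLC1 tumours, against 457, 601 and 968 in Parental LLC1 tumours (1.77 ± 0.23, adjusted p = 0.000831). Of 19 matricellular and adhesive glycoproteins 14 rose and 2 fell. The fallers were Spp1 (osteopontin, -0.51), which was not called under quantile normalisation (adjusted p = 0.124), and Smoc1 (-0.20), whose call was lost without any 1 of 4 libraries (adjusted p up to 0.0996, without Parental LLC1 replicate 2). Among elastic fibre genes 8 of 16 rose and 1 fell. Elastin itself (Eln) had 2272, 1706 and 844 in Chronic IFNG LLC1 tumours, against 406, 620 and 560 in Parental LLC1 tumours (1.04 ± 0.21, adjusted p = 0.00653). The spread of Eln in Chronic IFNG LLC1 was wide, and its lowest library was still above all Parental LLC1 libraries.

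Enzymes that finish collagen rose in a smaller share than the collagens themselves. The cross-linking oxidases Loxl1 (0.72), Loxl4 (0.54) and Lox (0.40) rose, as did Adamts2 (0.53) and Bmp1 (0.46), which trim the ends of procollagen. The lysyl hydroxylase Plod2 was the 1 that fell, at 12417, 12297 and 12146 normalised counts in Chronic IFNG LLC1 tumours, against 16549, 18258 and 14042 in Parental LLC1 tumours (-0.38 ± 0.08, adjusted p = 0.00732). Of the 22 tested genes of this list 7 rose (31.8%), 1 fell (4.55%) and 14 were not called, while 18 of 24 collagens rose. Over all tested genes 9.03% were higher and 15.5% lower. In basement membranes, Lama2, the laminin chain of muscle and mesenchyme, had 1058, 676 and 464 in Chronic IFNG LLC1 tumours, against 122, 107 and 208 in Parental LLC1 tumours (1.12 ± 0.15, adjusted p = 0.00116). Lama5, the laminin chain of epithelia and vessels, had 3669, 4749 and 4620 in Chronic IFNG LLC1 tumours, against 6329, 7456 and 6688 in Parental LLC1 tumours (-0.60 ± 0.09, adjusted p = 0.00177). These 2 laminin alpha chains moved in opposite directions, with no overlap of groups for either. Of the 10 tested laminin, nidogen and basement membrane proteoglycan genes 3 rose (30%), 1 fell (10%) and 6 were not called.

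Proteases that cut matrix were called in both directions, with 7 of 12 metalloproteinase and TIMP genes higher (58.3%) and 3 lower (25%). Over all tested genes 9.03% were higher and 15.5% lower. The gelatinases Mmp2 (0.91) and Mmp9 (0.78) and the membrane-bound Mmp14 (0.47) were higher, with the inhibitors Timp1 (0.32) and Timp2 (0.33). The calls of both inhibitors were lost without any 1 of 5 libraries, with adjusted p up to 0.1 for Timp1 and 0.12 for Timp2. Mmp9 had 1055, 1289 and 1304 normalised counts in Chronic IFNG LLC1 tumours, against 643, 539 and 436 in Parental LLC1 tumours (0.78 ± 0.10, adjusted p = 0.000769). The macrophage elastase Mmp12 had 8994, 9426 and 9861 in Chronic IFNG LLC1 tumours, against 21310, 16168 and 17238 in Parental LLC1 tumours (-0.91 ± 0.12, adjusted p = 0.000912). The collagenase Mmp13 had 1100, 1224 and 1143 in Chronic IFNG LLC1 tumours, against 2786, 2133 and 1944 in Parental LLC1 tumours (-0.76 ± 0.10, adjusted p = 0.000778). With the stromelysin Mmp3 (-1.83), these are the 3 metalloproteinases that fell, and all lie within 1 cluster on chromosome 9, between 7272514 and 7455975 on GRCm38. Mmp10 of the same stromelysin type was not called at -0.17. Plat, which encodes tissue plasminogen activator and so acts upstream of several of these enzymes, rose to 3862, 3176 and 3274 in Chronic IFNG LLC1 tumours, against 1119, 1358 and 1828 in Parental LLC1 tumours (1.05 ± 0.12, adjusted p = 0.000488).

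Integrins, the receptors for matrix, were the matrix list in which falls outnumbered rises, with 3 higher (20%) and 6 lower (40%) of 15. Falls also outnumbered rises over all tested genes, with 9.03% higher and 15.5% lower. Itga2, part of the collagen receptor, had 159, 202 and 258 normalised counts in Chronic IFNG LLC1 tumours, against 878, 612 and 1066 in Parental LLC1 tumours (-1.09 ± 0.12, adjusted p = 0.000488), a 4.13-fold fall. Itga6, the laminin receptor chain, had 4871, 5710 and 6620 in Chronic IFNG LLC1 tumours, against 10832, 10456 and 9964 in Parental LLC1 tumours (-0.82 ± 0.12, adjusted p = 0.00166). Its epithelial partner Itgb4 fell as well (-0.46), while Itgb5 (0.45), Itga10 (0.38) and Itgb8 (0.22) rose. Itga10 lost its call without either of Parental LLC1 replicates 1 and 2 (adjusted p up to 0.0567), and Itgb8 without any 1 of 4 libraries (up to 0.0648). The common chain Itgb1 was not called at 0.09, and was called at 0.18 under quantile normalisation (adjusted p = 0.0233).

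**Figure D3:**
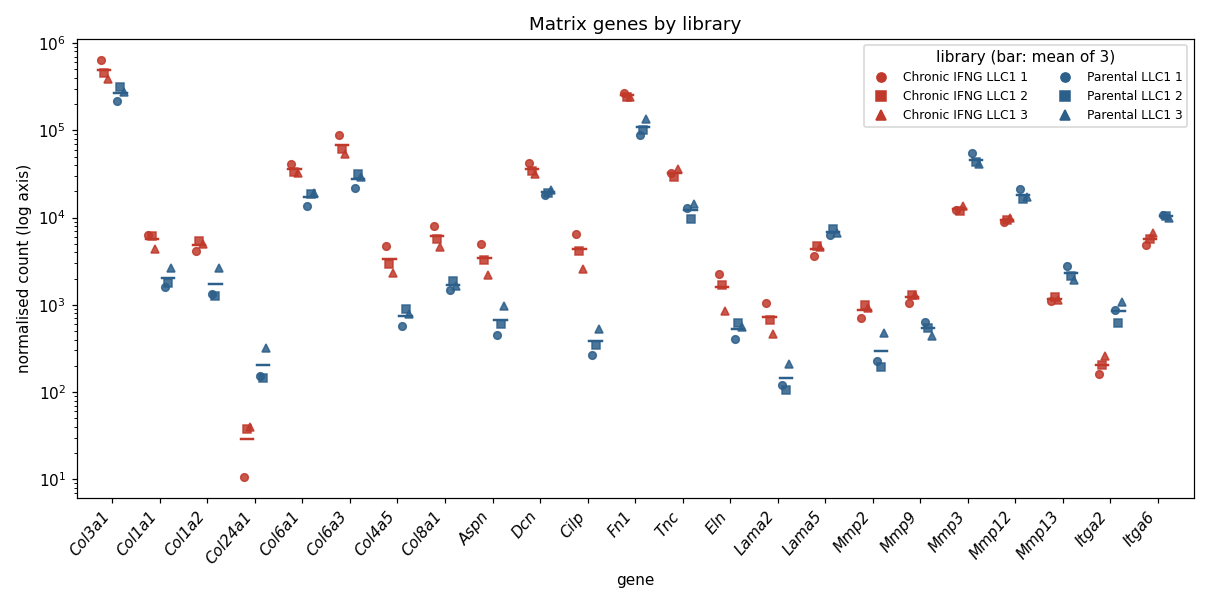
Normalised counts (log axis) of 23 matrix genes in each library, with Chronic IFNG LLC1 in red to the left of Parental LLC1 in blue, marker shape giving the replicate and bars the group mean. Collagens, Aspn, Cilp and Fn1 sit higher in Chronic IFNG LLC1, while Col24a1, Lama5, Mmp3, Mmp12, Mmp13, Itga2 and Itga6 sit lower, without overlap of groups.

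The fibroblast markers that rose were, but for Pi16, matrix genes themselves. Of 12 fibroblast markers 10 were tested, 5 were higher (50%) and 0 lower, against 9.03% higher and 15.5% lower of all tested genes. The 12 markers summed to 31330, 23060 and 19820 CPM in Chronic IFNG LLC1 libraries, against 10830, 15370 and 13730 CPM in Parental LLC1 libraries. Col3a1, Dcn, Lum and Dpt make up most of that sum and are members of the matrix lists, so they are not independent of those lists. The 8 fibroblast markers outside the matrix lists summed to 446, 365 and 333 CPM in Chronic IFNG LLC1 libraries, against 274, 307 and 351 CPM in Parental LLC1 libraries, with overlap, and 1 of 6 tested rose. That 1 was Pi16 (0.74), a marker of adventitial fibroblasts, whereas the receptor Pdgfra was not called at 0.21. None of the 12 was at 0 in all 6 libraries. Endothelial markers summed to 14.1, 17.5 and 16.2 CPM in Chronic IFNG LLC1 libraries, against 34.9, 35.3 and 28.0 CPM in Parental LLC1 libraries, and both tested members, Flt1 and Egfl7, fell. They carry most of the sum. The 8 endothelial markers too low to test summed to 2.79, 6.07 and 3.29 CPM in Chronic IFNG LLC1 libraries, against 4.13, 2.46 and 4.40 CPM in Parental LLC1 libraries, with overlap. Among them Pecam1 had 23.6, 42.1 and 24.4 normalised counts in Chronic IFNG LLC1 tumours, against 32.2, 24.5 and 33.7 in Parental LLC1 tumours, with overlap. The receptor Kdr averaged 15.2 in Chronic IFNG LLC1 and 5.43 in Parental LLC1, so the list as a whole had no common direction. Pericyte and smooth muscle markers summed to 27.5 to 35.9 CPM in Chronic IFNG LLC1 libraries and 24.4 to 29.5 CPM in Parental LLC1 libraries, with no call among 2 tested. The part of host cells in the matrix differences was not tested.

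Proliferation genes were lower as a block. Of 298 tested genes 154 were lower and 1 higher in Chronic IFNG LLC1 tumours, against 15.5% and 9.03% of all tested genes, and the median log2 difference was -0.23. Averaged over the block, the Chronic IFNG LLC1 libraries lay at -0.27, -0.27 and -0.15 from the Parental LLC1 mean, and the Parental LLC1 libraries at -0.02, 0.05 and -0.03. Calls were most frequent in late mitosis, with 15 of 16 mitotic kinesins and cytokinesis genes lower (median -0.41), followed by mitotic kinases and the chromosomal passenger complex (10 of 14, -0.38). Origin licensing (10 of 16), condensin and cohesin (10 of 17), nucleotide synthesis (16 of 28), cyclins and CDKs (9 of 16), kinetochore genes (18 of 33), the replication fork (16 of 33) and the spindle checkpoint (10 of 21) came next. E2F, RB and DREAM genes, which control the others, were lower in 4 of 19, a share of 21.1% near the 15.5% of all tested genes, with Foxm1 (-0.19) and Mybl2 (-0.21) not called. Both were called without Chronic IFNG LLC1 replicate 3, at -0.32 for Foxm1 (adjusted p = 0.00786) and -0.35 for Mybl2 (adjusted p = 0.00462). Whether the shares of these lists differ from each other was not tested.

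Kif23, a motor of the cleavage furrow, had 538, 430 and 532 normalised counts in Chronic IFNG LLC1 tumours, against 1079, 1353 and 868 in Parental LLC1 tumours (-0.72 ± 0.10, adjusted p = 0.00116). Ccnb1, the mitotic cyclin, had 660, 652 and 733 in Chronic IFNG LLC1 tumours, against 1235, 1489 and 1053 in Parental LLC1 tumours (-0.60 ± 0.09, adjusted p = 0.00143). Rrm2, the regulated subunit of the enzyme that makes deoxynucleotides, had 908, 914 and 1252 in Chronic IFNG LLC1 tumours, against 1742, 2049 and 1809 in Parental LLC1 tumours (-0.66 ± 0.09, adjusted p = 0.00124). Groups did not overlap for these 3, and for Rrm2 the third Chronic IFNG LLC1 library was nearest to Parental LLC1. The helicase subunit Mcm4 had 1824, 1731 and 2420 in Chronic IFNG LLC1 tumours, against 2831, 2927 and 2840 in Parental LLC1 tumours (-0.45 ± 0.09, adjusted p = 0.0051). The third replicate was also the highest Chronic IFNG LLC1 library for 210 of the 298 genes, against 3719 of 10581 tested genes. No inhibitor of cyclin-dependent kinases rose. Cdkn1a, which encodes p21 and halts the cycle, had 1830, 2027 and 2170 in Chronic IFNG LLC1 tumours, against 2782, 2706 and 2196 in Parental LLC1 tumours (-0.29 ± 0.09, adjusted p = 0.0337). Its call was lost in 10 of 16 alternatives.

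Promoters of 3 mitotic genes that fell are shown because they carry the CHR and CCAAT letters. Runs are again RefSeq on GRCm38.p6, with TTTGAA (CHR) and CCAAT, searched on both strands, in capitals. They belong to Kif23 (chr9:61946750-61947049, minus strand), Cdc20 (chr4:118437294-118437593, minus strand), which activates the anaphase-promoting complex, and Cenpf (chr1:189688037-189688336, minus strand), a kinetochore protein.
Kif23: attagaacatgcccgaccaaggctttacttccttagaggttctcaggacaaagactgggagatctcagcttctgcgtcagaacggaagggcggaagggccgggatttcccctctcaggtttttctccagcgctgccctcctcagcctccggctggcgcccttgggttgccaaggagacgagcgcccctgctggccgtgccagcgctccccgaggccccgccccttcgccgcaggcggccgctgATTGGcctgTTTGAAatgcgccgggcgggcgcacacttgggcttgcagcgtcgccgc
Cdc20: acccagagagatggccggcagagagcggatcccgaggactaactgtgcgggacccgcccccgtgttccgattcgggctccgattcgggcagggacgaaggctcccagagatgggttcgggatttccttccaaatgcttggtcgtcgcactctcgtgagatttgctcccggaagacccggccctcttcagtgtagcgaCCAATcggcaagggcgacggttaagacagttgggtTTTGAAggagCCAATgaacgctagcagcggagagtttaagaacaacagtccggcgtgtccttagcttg
Cenpf: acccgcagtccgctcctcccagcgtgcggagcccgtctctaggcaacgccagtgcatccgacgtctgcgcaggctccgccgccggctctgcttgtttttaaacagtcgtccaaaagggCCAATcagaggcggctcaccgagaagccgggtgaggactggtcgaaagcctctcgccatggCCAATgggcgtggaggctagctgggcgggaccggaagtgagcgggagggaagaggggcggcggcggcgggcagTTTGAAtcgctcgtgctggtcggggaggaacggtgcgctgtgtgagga
Each has 1 CHR match within the shown window, and Kif23 has 1 CCAAT match while Cdc20 and Cenpf have 2 each. Cdc20 had 597, 694 and 776 normalised counts in Chronic IFNG LLC1 tumours, against 1039, 1170 and 977 in Parental LLC1 tumours (-0.42 ± 0.07, adjusted p = 0.00349). Cenpf had 1509, 1310 and 1636 in Chronic IFNG LLC1 tumours, against 2923, 2848 and 2392 in Parental LLC1 tumours (-0.71 ± 0.09, adjusted p = 0.000769). Of the 53 mitotic genes that fell, 45 had a promoter in the table, and 29 (64.4%) held the CHR letters, against 14.0% of the promoters of all tested genes. CCAAT was in 31 (68.9%), against 43.4%. Of 27 mitotic genes with a promoter that were not called, 6 (22.2%) held the CHR letters and 15 (55.6%) CCAAT.

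Replication-dependent histones, whose messages rise in S phase and lack poly(A) tails, were counted here because the libraries were made from total RNA. Of 59 tested, 25 were lower and 1 higher, with a median of -0.21. Hist1h3g had 565, 534 and 588 normalised counts in Chronic IFNG LLC1 tumours, against 860, 1117 and 837 in Parental LLC1 tumours (-0.47 ± 0.07, adjusted p = 0.00221). Hist1h2ai, the 1 proliferation gene that rose, had 290, 330 and 482 in Chronic IFNG LLC1 tumours, against 120, 67.6 and 230 in Parental LLC1 tumours (0.61 ± 0.17, adjusted p = 0.0269). Histone copies are near-identical, so reads may be shared among them. The call of Hist1h2ai was lost without any 1 of 4 libraries, with adjusted p up to 0.0975.

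Among growth genes 108 of 270 tested were lower (40%) and 3 higher (1.11%), against 15.5% lower and 9.03% higher of all tested genes, with a median of -0.16. Cytosolic ribosomal proteins were lower in 45 of 80 (median -0.19), the chaperonin that folds actin and tubulin in 7 of 8 (-0.23), ribosome biogenesis genes in 12 of 33 (-0.16), translation initiation factors in 19 of 51 (-0.15), aminoacyl-tRNA synthetases in 7 of 20 (-0.14) and mitochondrial ribosomal proteins in 18 of 78 (-0.10), a share of 23.1% that is nearer to that of all tested genes. Rps23 of the small subunit had 9857, 10425 and 9994 normalised counts in Chronic IFNG LLC1 tumours, against 16084, 13809 and 13440 in Parental LLC1 tumours (-0.49 ± 0.07, adjusted p = 0.00157). Rps27 was not called and swung within both groups, with 7413, 8056 and 770 in Chronic IFNG LLC1 tumours, against 106, 126 and 6148 in Parental LLC1 tumours. Without Parental LLC1 replicate 3 it was called higher, at 3.12 (adjusted p = 0.0317). Under quantile normalisation 67 growth genes were lower, without Chronic IFNG LLC1 replicate 2 there were 58, and without Parental LLC1 replicate 1 there were 56.

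**Figure D4:**
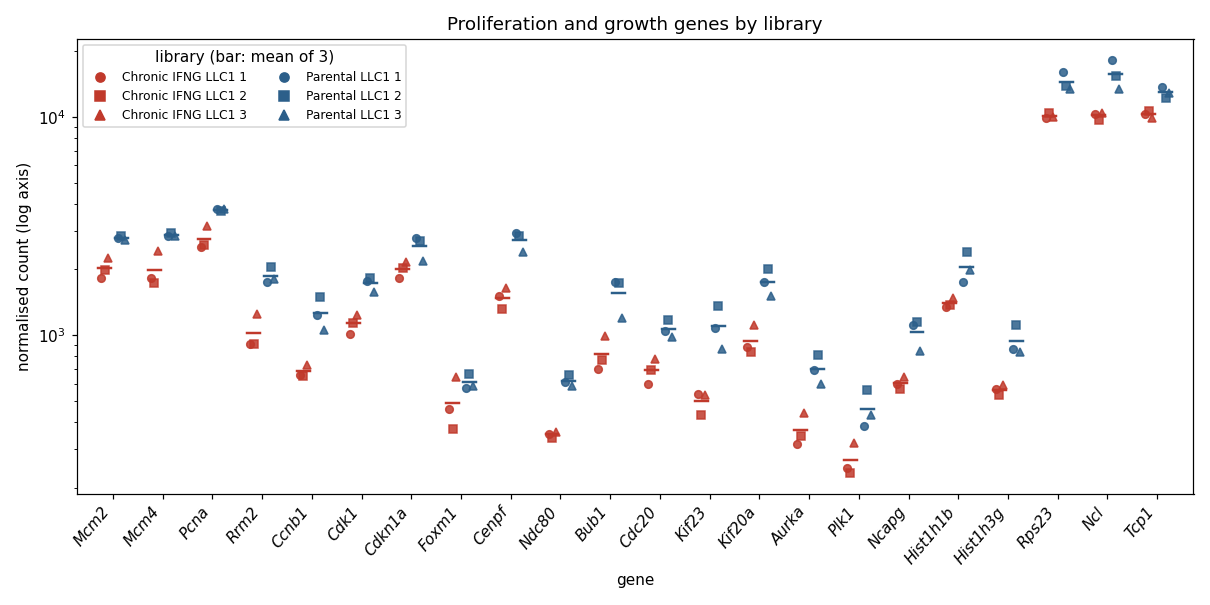
Normalised counts (log axis) of 22 proliferation and growth genes in each library, with Chronic IFNG LLC1 in red to the left of Parental LLC1 in blue, marker shape giving the replicate and bars the group mean. Red points lie below blue points for each gene except Foxm1, where the groups overlap.

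The share of genes called lower was uneven along the genome. On chromosome 12, 157 of 375 tested genes (41.9%) were lower and 15 higher, and on chromosome 18, 111 of 280 (39.6%) were lower and 4 higher, against 15.5% lower over all tested genes. Outside these chromosomes 13.8% of 9926 tested genes were lower and 9.43% higher. The median log2 ratio of counts to the Parental LLC1 mean was -0.23, -0.25 and -0.25 in the 3 Chronic IFNG LLC1 libraries on chromosome 12, and -0.20, -0.23 and -0.24 on chromosome 18. In the Parental LLC1 libraries it was 0.00, 0.02 and -0.02 on both chromosomes. Without Chronic IFNG LLC1 replicate 2, and likewise without Parental LLC1 replicate 2, 73 chromosome 18 genes were lower. The shift was thus nearly equal in the 3 Chronic IFNG LLC1 libraries, unlike that of the interferon genes.

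Runs of 25 consecutive tested genes gave the pattern within each chromosome. On chromosome 18 all 11 runs had a negative median, between -0.19 and -0.10. On chromosome 12 the first 9 runs, up to position 83683123, had medians between -0.34 and -0.11, and 127 of their 225 genes (56.4%) were lower. The later 6 runs ran between -0.14 and 0.00, with 30 of 150 later genes (20%) lower. This boundary was placed after the values were seen. Over all 415 runs the median was -0.01, with 5% below -0.13. The lowest run of all, chr12:52097737-57239882, had 20 of 25 genes lower. It holds Brms1l, a subunit of a histone deacetylase complex, at 466 ± 153 normalised counts in Chronic IFNG LLC1 tumours and 1325 ± 324 in Parental LLC1 tumours (SD, n = 3 each, 2.85-fold lower). It also holds the oxygen-sensing hydroxylase Egln3 (-0.87), the NF-κB inhibitor Nfkbia (-0.54) and the developmental factor Pax9 (-0.48). Nfkbia lost its call without any 1 of 5 libraries (adjusted p up to 0.128, without Parental LLC1 replicate 1).

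Members of the lists lie on these chromosomes too, among them Rrm2, Pole2, Odc1, Rps7 and Ncapg2 on chromosome 12 and Nars, Lars, Hars, Kif20a and Ptpn2 on chromosome 18. Leaving out both chromosomes, 146 of 285 proliferation genes (51.2%) and 99 of 257 growth genes (38.5%) were lower, and the proliferation median was -0.22. The interferon gene Iigp1 rose on chromosome 18, with 901, 2032 and 2585 normalised counts in Chronic IFNG LLC1 tumours, against 638, 677 and 784 in Parental LLC1 tumours (0.92 ± 0.24, adjusted p = 0.0176). Without Chronic IFNG LLC1 replicate 2 its adjusted p was 0.0658. On chromosome X 54 of 310 genes (17.4%) rose and 19 (6.13%) fell. On chromosome 4 83 of 613 (13.5%) rose and 37 (6.04%) fell. Over all tested genes 9.03% rose and 15.5% fell. Xist, the RNA that coats the inactive X chromosome, had 146, 153 and 172 in Chronic IFNG LLC1 tumours, against 3351, 2940 and 2239 in Parental LLC1 tumours. Any link between Xist and the X-chromosome share was not tested, and nor were the copy number or growth history of the lines.

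**Figure D5:**
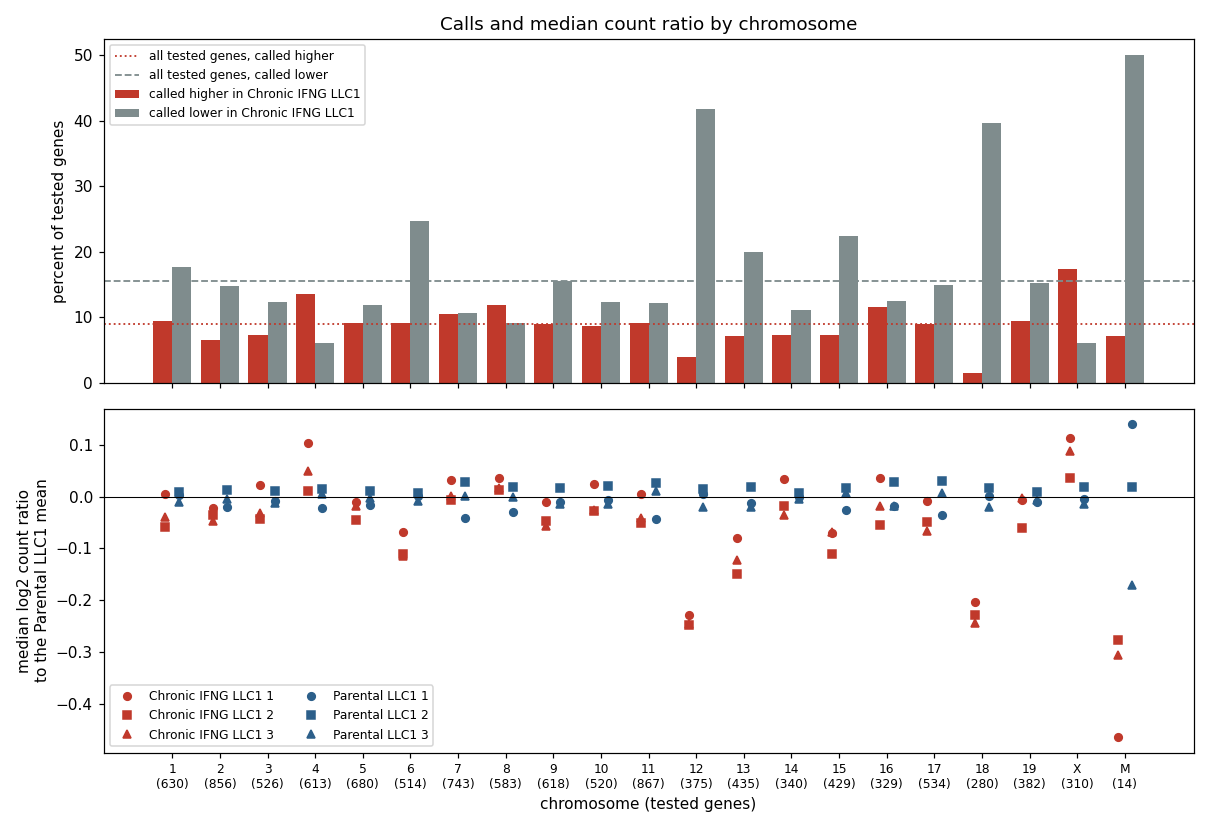
Upper panel, percent of tested genes called higher (red) and lower (grey) in Chronic IFNG LLC1 by chromosome, with lines at the values for all tested genes. Lower panel, median log2 count ratio to the Parental LLC1 mean in each library (Chronic IFNG LLC1 red, Parental LLC1 blue, shape giving the replicate), where chromosomes 12 and 18 lie near -0.2 in all 3 Chronic IFNG LLC1 libraries and the mitochondrial genome (M) lies lower with more spread.

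Of 14 tested genes of the mitochondrial genome 7 were lower and 1 higher. The complex I subunit mt-Nd1 had 10896, 11591 and 11617 normalised counts in Chronic IFNG LLC1 tumours, against 16667, 15981 and 14010 in Parental LLC1 tumours (-0.43 ± 0.08, adjusted p = 0.00326). mt-Cytb of complex III had 16468, 17811 and 16425 in Chronic IFNG LLC1 tumours, against 25219, 23207 and 19946 in Parental LLC1 tumours (-0.41 ± 0.09, adjusted p = 0.00806). The 2 ribosomal RNAs were not called, at -0.22 for mt-Rnr1 and -0.11 for mt-Rnr2. The gene that rose, mt-Nd3, had an adjusted p of 0.0499 at 0.36 ± 0.12, and lost its call in 8 of 16 alternatives. Of 18 tested small nuclear RNAs 13 were lower and 0 higher, and of 33 small nucleolar RNAs 12 were lower and 3 higher. Against the shares of all tested genes, 9.03% higher and 15.5% lower, the nucleolar RNAs had 9.09% higher and 36.4% lower, and the nuclear RNAs 72.2% lower. Calls among these RNAs can rest on same-named copies. Of the 2 entries named Rnu3b1, the one called lower had 0, 8325 and 0 normalised counts in Chronic IFNG LLC1 tumours, against 9001, 10260 and 7760 in Parental LLC1 tumours. The other, not called, had 14211, 3870 and 13172 in Chronic IFNG LLC1 tumours, against 5772, 6661 and 9067 in Parental LLC1 tumours. Summed over both entries the counts were 14211, 12194 and 13172 in Chronic IFNG LLC1 tumours, against 14773, 16921 and 16827 in Parental LLC1 tumours, a much smaller difference than in the called entry, and how reads were divided between the copies is uncertain.

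Several genes at the ends of the ranking belong to none of these blocks. The ends were taken from calls whose groups did not overlap, so a lack of overlap there is not a result. Ly6a, which encodes the interferon-inducible surface protein Sca-1, had 1263, 1715 and 1935 normalised counts in Chronic IFNG LLC1 tumours, against 345, 375 and 600 in Parental LLC1 tumours (1.27 ± 0.13, adjusted p = 0.000393). Lrrc15, a membrane protein of activated fibroblasts and mesenchymal tumours, had 3828, 2491 and 1678 in Chronic IFNG LLC1 tumours, against 590, 935 and 984 in Parental LLC1 tumours (1.24 ± 0.21, adjusted p = 0.0028). Replicate 1 was the lowest Chronic IFNG LLC1 library for Ly6a and the highest for Lrrc15. Among the falls, Il33, an alarmin cytokine, had 8090, 7779 and 7970 in Chronic IFNG LLC1 tumours, against 18096, 14946 and 11409 in Parental LLC1 tumours (-0.83 ± 0.14, adjusted p = 0.00293). Its receptor partner Il1rap fell as well, at -0.76. Sema3a, a secreted guidance cue for axons and vessels, had 2027, 1953 and 1710 in Chronic IFNG LLC1 tumours, against 3956, 4061 and 3402 in Parental LLC1 tumours (-0.85 ± 0.07, adjusted p = 0.00021). Kif21a, a kinesin of interphase microtubules rather than mitosis, was lower at 274, 290 and 309 in Chronic IFNG LLC1 tumours, against 1026, 825 and 594 in Parental LLC1 tumours (-0.82 ± 0.13, adjusted p = 0.00213). For Il33, Sema3a and Kif21a the Chronic IFNG LLC1 libraries lay close together.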

How the data were processed

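RNA of CD45-negative cells was sequenced as stranded total RNA in pairs, per the labels' protocols. Tools and build are listed, with no role for each, as cutadapt 2.9, Salmon 1.8.0, DESeq2 1.34.0 and GRCm38/mm10, per the submitters' processing notes. The authors' deposited values are variance-stabilised and on a log2 scale, judging by the table's name and its values. Symbols and coordinates came from GENCODE vM21, and 70 identifiers had no match. Taking the lowest deposited value (8.03) as 0, the transformation was inverted to obtain normalised counts. Of low values per library, 75.1% to 78.8% lay 0.15 reads or less from a whole number (30% by chance), and the spacing gave the depth. Genes entered the test if an LLC1 group mean exceeded the lowest value by at least 1 log2 unit (130.4 normalised counts). The fit used limma 3.58.1 (R 4.3.3) with an intensity trend on 9 LLC1 libraries, where the 3 Relapsed LLC1 libraries served to estimate spread, and Benjamini-Hochberg adjustment over 10581 genes. The test was checked on simulated data. Lists have no test of their own. Members and lists were chosen with earlier results of these data known. Named genes came from the 20 highest and 20 lowest calls with non-overlapping groups, up to 5 per list, leading members of the 8 highest and 8 lowest families, the genes of widest spread and the extreme chromosomes and runs. Outside this rule, Aim2, Brms1l, Col24a1, Foxm1, Ifitm2, Ifitm3, Itga10, Itgb1, Itgb8, Mmp10, Mmp14, Nfkbia, Pax9, Pdgfra, Plod2, Smoc1, Spp1, Timp1, Timp2, mt-Cytb, mt-Rnr1 and mt-Rnr2 were named after their values were seen. CPM values scale back-calculated counts to an equal total. Figures used matplotlib 3.10.9 (Python 3.11.15).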

Additional observations from a re-analysis of the deposited data

How the results depend on the processing

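For 99 of the genes named above, the only ones checked in this way, no alternative reversed a direction. Calls were lost at least once for 18 of them (Iigp1, Ifitm2, Ifitm3, Spp1, Cdkn1a, Hist1h2ai, mt-Nd3, Col4a1, Herc6, Oasl2, Parp14, Uba7, Itga10, Itgb8, Nfkbia, Smoc1, Timp1, Timp2) and gained for 7 (Foxm1, Mybl2, Isg15, Usp18, Itgb1, Rps27, mt-Rnr1). With a stricter filter of 3 log2 units, which tests fewer genes, 362 genes were higher and 848 lower, 15 interferon genes were higher and 72 proliferation genes lower, and the matrix median was 0.34. Requiring 1 log2 unit left 36 higher and 11 lower. Under quantile normalisation 67 growth genes were lower (median -0.10), and the matrix median was 0.34. The matrix median was 0.11 with no filter. On back-calculated counts with a pseudocount of 10 the matrix median was 0.43 and the proliferation median -0.35, and with a pseudocount of 1 they were 0.44 and -0.36, with an interferon median of 0.52, since counts lack the deposited scale's compression. Other causes were not tested. Leaving out 1 library gave 507 to 1057 genes higher and 1029 to 1691 lower, 30 to 84 interferon genes higher, 52 to 66 matrix genes higher, 110 to 180 proliferation genes lower and 56 to 120 growth genes lower. The low ends came without Parental LLC1 replicate 1 for genes higher and growth, and without Chronic IFNG LLC1 replicate 2 for genes lower and interferon. Medians then ran from 0.26 to 0.43 for interferon, 0.25 to 0.33 for matrix, -0.26 to -0.20 for proliferation and -0.17 to -0.13 for growth. With the replicate number as a block 814 genes were higher and 1464 lower, while 52 interferon and 61 matrix genes were higher, and 153 proliferation and 98 growth genes lower. The labels share replicate numbers without saying what a number marks, and deviations of same-numbered libraries correlated at -0.30, -0.17 and -0.09, so no pairing was used. The block ended the calls of Cdkn1a (adjusted p = 0.0558), Herc6 (0.0707), Nfkbia (0.0637), Oasl2 (0.0807), Parp14 (0.0515) and Timp2 (0.0737). Limits are 3 libraries per group, unknown animals per library, depth that differs between groups and low counts compressed by the deposited scale.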
